A study of Drosophila melanogaster with 6 samples.

Results

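Oxidative phosphorylation is the last stage of respiration, in which enzyme complexes of the inner mitochondrial membrane pass electrons from NADH and succinate to oxygen and use the resulting proton gradient to make ATP. Complex I oxidises NADH, complex II (succinate dehydrogenase) oxidises succinate, complex III passes electrons to cytochrome c, complex IV (cytochrome c oxidase) reduces oxygen, and ATP synthase makes ATP. Most subunits are encoded in the nucleus, a few core subunits of complexes I, III, IV and ATP synthase in the mitochondrial genome, and all subunits of complex II in the nucleus. In Drosophila, many nuclear subunit genes have a duplicate whose symbol carries an added L, for like, and such duplicates are known chiefly from the testis.

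The genes described here encode subunits of these complexes and were chosen by symbol: features of the deposited table with a single gene symbol that starts with ND- (complex I), Sdh followed by a capital letter or digit (complex II), UQCR (complex III), COX (complex IV) or ATPsyn (ATP synthase). Of 11325 features, 65 met the rule: 32 of complex I, 4 of complex II, 5 of complex III, 11 of complex IV and 13 of ATP synthase. They comprise 52 main subunits encoded in the nucleus, 10 paralogues with an L-ending symbol (called L paralogues below) and 3 mitochondrially encoded subunits, COX1, COX2 and COX3. No member was an assembly factor. ND-MNLL also ends in L, but its symbol without the L names no gene of the annotation, so it was counted as a main subunit. The annotation holds 90 genes whose symbols meet the rule, of which 2 lie on features shared with another gene and 23, among them SdhA, ND-24, UQCR-C1 and UQCR-C2, were not analysed here.

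RNA came from wing imaginal discs of Drosophila melanogaster, epithelial pouches of the larva from which the wing and part of the thorax arise, dissected 7 days after transgene induction. In 3 samples the ap (apterous) driver, active in the dorsal compartment, expressed Yki, the transcriptional effector of the Hippo pathway (genotype ap>YAP/Yki, called the Yki group). In 3 others it drove, besides Yki, a hairpin RNA that silences pan, the gene of dTcf, through which Wg signalling acts on its target genes (ap>YAP/Yki+dTcf/Pan-RNAi, called the pan RNAi group). All 6 samples therefore carried the driver and Yki, discs without Yki were not analysed here, and the discs were taken whole, so that dorsal cells with the transgenes and other cells were measured together. The question is how RNA levels in discs with Yki depend on dTcf.

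Levels are log2 values from single-channel arrays, n = 3 arrays per group throughout. A change is the pan RNAi mean minus the Yki mean, given with its standard error (SE) from limma, and a gene is said to have fallen or risen at a Benjamini-Hochberg adjusted p under 0.05 over all 11303 features tested. Of those features, 13.4% fell and 12.1% rose, and their median change was 0.03. Arrays of the same group correlated at 0.994 to 0.996, and arrays of different groups at 0.98 to 0.986. The labels do not say whether the replicates are separate pools of animals, so the p-values reflect variation among these arrays, possibly technical. The number of arrays limits the precision.

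Of the 52 main subunits, 38 fell with pan RNAi and 0 rose (limma), against the 13.4% and 12.1% of all features. At an unadjusted p under 0.05, 43 were lower and 0 higher, against 2162 and 2308 of all 11303 features. In the deposited values all 52 had a change below 0, as did 42.8% of all features, and the median change of the 52 was -0.28. With array medians set equal, which raises every change alike, COX7A and ND-MNLL lie above 0. The 3 pan RNAi arrays all lay below the 3 Yki arrays for 45 of the 52, as they did for 21.6% of all features. The changes were small: the main subunits that fell did so by 1.12-fold to 1.51-fold, and 0 of the 65 members met the submitters' threshold of a 2-fold change at an adjusted p under 0.05, which 1.53% of all features met. Since whole discs were measured, fewer cells with high levels and less RNA per cell cannot be told apart.

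**Figure D1:**
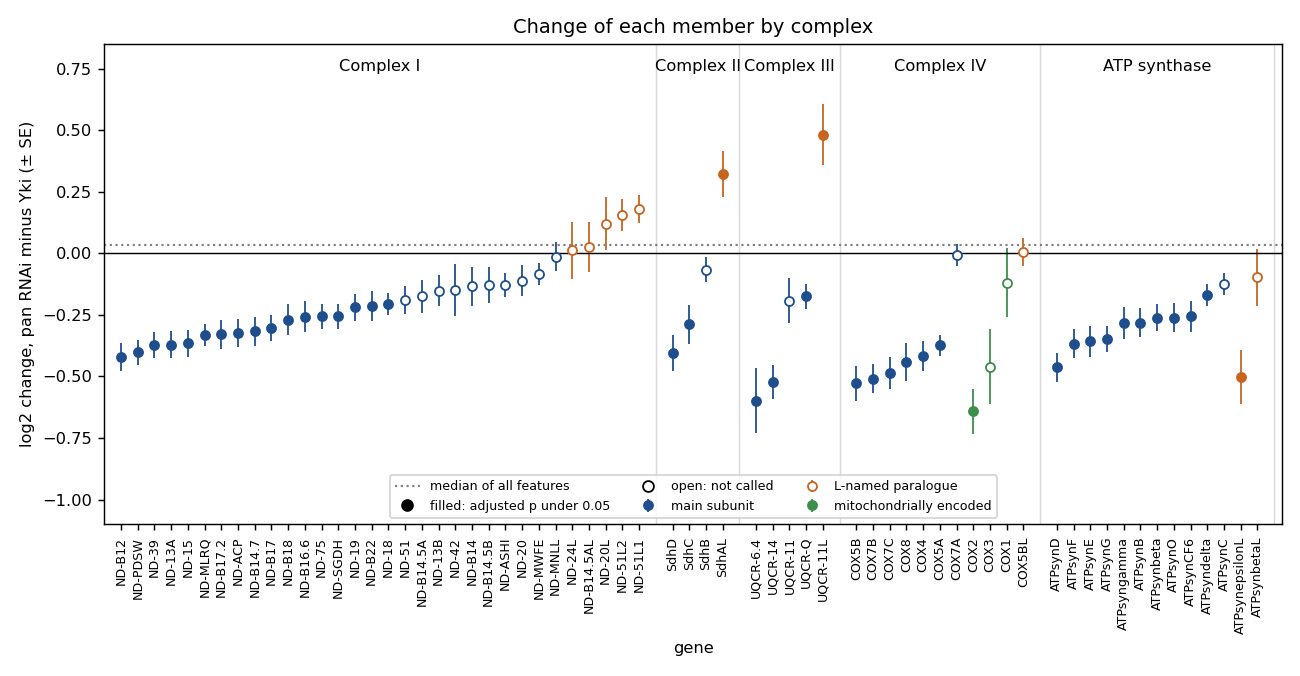
Change of each of the 65 members (log2, pan RNAi minus Yki, bars ± SE of the limma fit), grouped by complex. Filled points passed an adjusted p of 0.05, and the dotted line is the median of all features, 0.03. All 52 main subunits lie below 0, and the only 2 members that rose are the L paralogues SdhAL and UQCR-11L.

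In complex I, 17 of 27 main subunits fell and 0 rose (13.4% and 12.1% of all features), with a median change of -0.26. Of these 17, 12 kept their call whichever array was left out. Leaving out 1 array also lowered the calls over all features, from 2887 to between 1744 and 2435. The members with the lowest p were accessory subunits, which surround the catalytic core. ND-PDSW (FBgn0021967), the fly counterpart of NDUFB10, was at 9.50, 9.41 and 9.55 in the Yki arrays and at 9.11, 9.08 and 9.06 with pan RNAi. ND-B12 (FBgn0034645), the counterpart of NDUFB3, was at 8.04, 8.13 and 8.10 against 7.71, 7.58 and 7.72. For both genes each pan RNAi array was lower than each Yki array, and the changes were -0.40 ± 0.05 (adjusted p = 0.00282) and -0.42 ± 0.06 (adjusted p = 0.00346). ND-39, the counterpart of NDUFA9, changed by -0.37 ± 0.05 (adjusted p = 0.00439). ND-MLRQ changed by -0.33 ± 0.05 (adjusted p = 0.00398). It carries a complex I name, but its mammalian counterpart NDUFA4 has been assigned to complex IV.

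The core subunits of complex I are those it shares with the bacterial enzyme, and some of them carry the flavin and the iron-sulphur clusters. Of the core subunits encoded in the nucleus, 3 were measured, and 1 of them fell (13.4% of all features). ND-75, the counterpart of NDUFS1, named after its values were seen, was at 9.03, 9.02 and 9.08 against 8.74, 8.77 and 8.85, a change of -0.26 ± 0.05 (adjusted p = 0.0122). ND-51, which binds NADH and the flavin, changed by -0.19 ± 0.06 (adjusted p = 0.0524), and ND-20 by -0.11 ± 0.06 (adjusted p = 0.232). These 2 did not pass the test. The pan RNAi arrays lay below the Yki arrays in both, as they did for 21.6% of all features. For ND-20 the groups were barely apart, with 10.1387 in Yki replicate 3 and 10.1379 in pan RNAi replicate 3. ND-51 passed without Yki replicate 1 (adjusted p = 0.0311), with dim features left out (adjusted p = 0.0315) and with a variance trend in limma (adjusted p = 0.0372). Among the 24 accessory subunits 16 fell (13.4% of all features). Their median was -0.26, beside -0.19 for the 3 core subunits encoded in the nucleus. This difference was not tested. The accessory subunit with the smallest change, named after its values were seen, was ND-MNLL, whose levels overlapped at 9.13, 9.24 and 9.14 against 9.24, 9.13 and 9.10. Its change was -0.01 ± 0.06, with a 95% confidence interval of -0.15 to 0.13 that does not reach the median of complex I.

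Of the 4 genes of complex II, 2 fell and 1 rose (13.4% and 12.1% of all features). SdhC and SdhD encode the membrane anchors and SdhB the iron-sulphur subunit that passes electrons to them. SdhD was at 11.38, 11.36 and 11.40 in the Yki arrays against 10.94, 10.86 and 11.13, a change of -0.41 ± 0.07 (adjusted p = 0.00887). SdhC was at 8.35, 8.34 and 8.61 against 8.11, 8.16 and 8.16, a change of -0.29 ± 0.08 (adjusted p = 0.0375). The groups did not overlap for either anchor, but the call of SdhC ended on leaving out any array other than Yki replicate 1 (adjusted p = 0.0503 to 0.112). SdhB levels overlapped, at 11.03, 11.12 and 11.15 against 11.04, 11.01 and 11.05, and its change of -0.07 ± 0.05 did not pass (adjusted p = 0.362, 95% confidence interval -0.19 to 0.05). The member that rose was SdhAL, the L paralogue of the flavoprotein gene SdhA, which is described with the other paralogues.

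In complex III, 3 of 4 main subunits fell (13.4% of all features), with a median of -0.36. UQCR-14 (FBgn0030733), the counterpart of UQCRB, was at 10.25, 10.18 and 10.39 against 9.76, 9.68 and 9.82, a change of -0.52 ± 0.07 (1.44-fold, adjusted p = 0.00321). UQCR-6.4 was at 9.76, 9.45 and 9.996 against 9.20, 9.18 and 9.03. It had the largest change of the 52 main subunits, -0.60 ± 0.13 (1.51-fold, adjusted p = 0.0184), and the Yki arrays alone spanned much of it. Its call ended without Yki replicate 1, pan RNAi replicate 1 or pan RNAi replicate 3 (adjusted p = 0.0503 to 0.0529). UQCR-Q, which changed by -0.18 ± 0.05 (adjusted p = 0.0456), lost its call whichever array was left out (adjusted p = 0.0578 to 0.129). UQCR-11, the hinge protein gene, overlapped between groups and did not pass (-0.19 ± 0.09, adjusted p = 0.167). The count of complex III members that fell was thus 1 without Yki replicate 1, pan RNAi replicate 1 or pan RNAi replicate 3.

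In complex IV, 6 of 7 nuclear main subunits fell and 0 rose (13.4% and 12.1% of all features), with a median change of -0.44. All 6 remained called on leaving out any 1 array. COX7B (FBgn0040793) was at 9.38, 9.29 and 9.48 against 8.91, 8.86 and 8.85, a change of -0.51 ± 0.06 (1.42-fold, adjusted p = 0.002). COX5B was at 12.21, 12.25 and 12.37 against 11.74, 11.65 and 11.85, a change of -0.53 ± 0.07 (1.44-fold, adjusted p = 0.00353). These are small subunits that surround the catalytic core. COX7C, another of them, changed by -0.48 ± 0.07 (adjusted p = 0.00355). The low-level feature COX5A was at 6.11, 6.15 and 6.15 against 5.77, 5.74 and 5.77 (-0.37 ± 0.04, adjusted p = 0.00182). The table holds no feature with fewer than 3 arrays at 5.91 or above, and COX5A is in the table through its Yki values alone, the only member of which this holds, and some difference between its groups was fixed by that. COX7A, named after its values were seen, stood apart from the other 6, with levels of 10.39, 10.40 and 10.43 against 10.36, 10.44 and 10.39. Its groups overlapped and its change was -0.01 ± 0.05 (adjusted p = 0.911), with a 95% confidence interval of -0.12 to 0.10 that excludes the change of each of the other 6.

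In ATP synthase, 10 of 11 main subunits fell (13.4% of all features), with a median of -0.28. The groups did not overlap for any of the 11, and 21.6% of all features were apart and lower. The enzyme has a catalytic head, a rotating central stalk, a peripheral stalk and a membrane part. ATPsynD (FBgn0016120), of the peripheral stalk, was at 10.78, 10.78 and 10.94 against 10.41, 10.33 and 10.38, a change of -0.46 ± 0.06 (1.38-fold, adjusted p = 0.00295). ATPsynG, ATPsynF and ATPsynE, of the membrane part, changed by -0.35 ± 0.05, -0.37 ± 0.06 and -0.36 ± 0.06. These 4 kept their calls on leaving out any array.

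The catalytic subunit ATPsynbeta was at 12.35, 12.36 and 12.49 against 12.11, 12.14 and 12.17, a change of -0.26 ± 0.05 (adjusted p = 0.0154, and 0.0569 without pan RNAi replicate 1). ATPsyndelta, of the central stalk, changed by -0.17 ± 0.04 (adjusted p = 0.034, and 0.0596 to 0.101 on leaving out any array other than Yki replicate 1) at a level of 13.17 to 13.40, near the highest value of the table, 14.06, where differences can be compressed. ATPsynC, the ring subunit of the membrane part, changed by -0.12 ± 0.05 and did not pass (adjusted p = 0.0888). The count for this complex was 5 without pan RNAi replicate 1, 6 without Yki replicate 2 and 6 without pan RNAi replicate 2. With array medians set equal it was 6, a scaling that moves the median of all features to 0.09 and under which 9.61% of them fell and 18.5% rose.

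**Figure D2:**
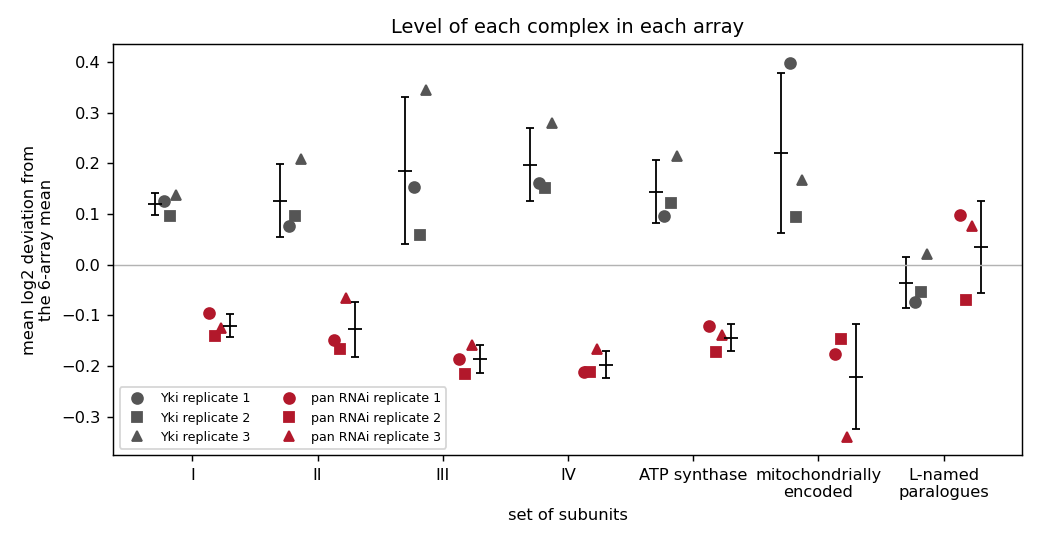
Level of each set of subunits in each of the 6 arrays, as the mean over its genes of the log2 deviation from the gene's 6-array mean. Black marks are the group mean ± SD (n = 3). The 3 pan RNAi arrays lie below 0 and the 3 Yki arrays above 0 for complexes I to IV, ATP synthase and the 11 measured mitochondrially encoded genes, and the groups overlap for the L paralogues.

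The separation between groups did not rest on a single array. Averaged over the 52 main subunits, the deviation from the 6-array mean was 0.12, 0.11 and 0.19 in the Yki arrays and -0.13, -0.16 and -0.13 in the pan RNAi arrays. Yki replicate 3 was the highest array for each of the 5 complexes. It was also the highest array for the summed level of 3 fat body markers, which was 8.54, 8.30 and 9.26 in the Yki arrays and 8.10, 8.09 and 8.22 with pan RNAi. Without that array the median change of the main subunits was -0.24 and 28 of 52 fell. The mean change was -0.24 for complex I, -0.25 for complex II, -0.37 for complex III, -0.39 for complex IV and -0.29 for ATP synthase. The deviation of complex IV minus that of complex I was 0.04, 0.05 and 0.14 in the Yki arrays and -0.12, -0.07 and -0.04 with pan RNAi. These values do not overlap, but whether the complexes differ was not tested, because the members were chosen with results of these arrays known.

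Over the 52 main subunits together, change and level were hardly related. Across these genes, which share the same 6 arrays, Pearson's r between mean level and change was -0.03 and Spearman's rho -0.05. Within the 27 of complex I they were -0.25 and -0.28, and over all features -0.08 and -0.15. None of these relations was tested. Of the 10 main subunits encoded on the X chromosome (arm per the RefSeq annotation) 6 fell, and of the 42 on other chromosomes 32 fell (13.4% of all features). The median change was -0.19 for those on the X chromosome and -0.31 for the others. This difference was not tested. The sexes differ in X dosage. Of the 6 measured genes listed for sex composition 0 passed (limma). At an unadjusted p under 0.05, 0 of these 6 were lower and 1 higher (2162 and 2308 of all 11303 features). Among them lncRNA:roX1, a male-specific RNA named after its values were seen, varied widely within the pan RNAi group, at 11.51, 13.25 and 12.09, against 12.70, 12.25 and 12.25 in the Yki arrays.

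The symbol rule misses some nuclear subunits with older names, and 7 of these were measured: RFeSP, Cyt-c1 and ox of complex III, levy and cype of complex IV, and blw and sun of ATP synthase. All 7 fell (13.4% of all features), with a median of -0.37. The largest change was that of cype, the counterpart of COX6C, which was at 8.19, 8.08 and 8.32 in the Yki arrays and at 7.40, 7.33 and 7.19 with pan RNAi. Its change of -0.89 ± 0.08 (1.85-fold, adjusted p = 0.000992) exceeded that of each of the 52 main subunits. The complex IV gene levy, the counterpart of COX6A, was at 12.09, 12.10 and 12.21 against 11.70, 11.67 and 11.74, a change of -0.43 ± 0.05 (adjusted p = 0.00242).

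RFeSP, the Rieske iron-sulphur protein, and Cyt-c1, both catalytic subunits of complex III, changed by -0.45 ± 0.05 (adjusted p = 0.00254) and -0.37 ± 0.05 (adjusted p = 0.00393). The alpha subunit gene blw, which pairs with beta in the catalytic head, changed by -0.25 ± 0.04 (adjusted p = 0.00907), close to the -0.26 of ATPsynbeta. The calls of ox (-0.36 ± 0.09, adjusted p = 0.0267) and sun (-0.23 ± 0.05, adjusted p = 0.0159) ended on leaving out certain arrays. For ox these were Yki replicate 3 and each pan RNAi replicate (adjusted p = 0.0551 to 0.0737), and for sun Yki replicates 2 and 3 (adjusted p = 0.0557 to 0.0592). With these genes added, 6 of 7 subunits of complex III, 8 of 9 of complex IV and 12 of 13 of ATP synthase fell, and 45 of 59 nuclear main subunits in all. The testis gene knon, a relative of ATPsynD, was at 6.16, 6.33 and 6.06 against 6.37, 6.26 and 6.63 and did not pass (0.24 ± 0.11, adjusted p = 0.167).

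The genes of the mitochondrial genome were lower as well, with more spread among arrays of a group. Of 11 measured, 6 fell and 0 rose, all 11 changes were below 0, and the median was -0.46. COX2 and COX3 encode core subunits of complex IV beside COX1, which holds the site of oxygen reduction. COX2 was at 8.61, 8.38 and 8.57 against 7.79, 8.03 and 7.81, a change of -0.64 ± 0.09 (1.56-fold, adjusted p = 0.0041). COX3 was at 7.85, 7.66 and 7.53 against 7.29, 7.46 and 6.90 (-0.46 ± 0.15, adjusted p = 0.0665), and passed without pan RNAi replicate 2 (adjusted p = 0.0411). COX1 was at 10.66, 10.27 and 10.38 against 10.23, 10.57 and 10.15 (-0.12 ± 0.14, adjusted p = 0.559). The groups were thus apart for COX2 and COX3 and overlapped for COX1, in which pan RNAi replicate 2 was above 2 of the 3 Yki arrays.

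ATP8, of the membrane part of ATP synthase, had the largest change of the 11, -0.90 ± 0.11 (1.86-fold, adjusted p = 0.00265), with levels of 10.26, 10.26 and 10.49 against 9.66, 9.36 and 9.29. The complex I genes ND3 (-0.57 ± 0.08, adjusted p = 0.00463) and ND2 (-0.48 ± 0.08, adjusted p = 0.00796) fell with it. ND6 (-0.69 ± 0.16, adjusted p = 0.0235) lost its call without pan RNAi replicate 2 or 3 (adjusted p = 0.0658 to 0.0665). ND5 (-0.34 ± 0.10, adjusted p = 0.0422) kept its call only without Yki replicate 3, and otherwise had an adjusted p of 0.0633 to 0.121. ND4L (-0.40 ± 0.15), ATP6 (-0.19 ± 0.15) and CYTB (-0.07 ± 0.19), which encodes cytochrome b of complex III, did not pass, with adjusted p-values of 0.0906, 0.391 and 0.806. CYTB was at 11.44, 10.79 and 10.94 against 10.96, 11.25 and 10.74, so that Yki replicate 1 and pan RNAi replicate 2 were its highest arrays, as they were for COX1.

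**Figure D3:**
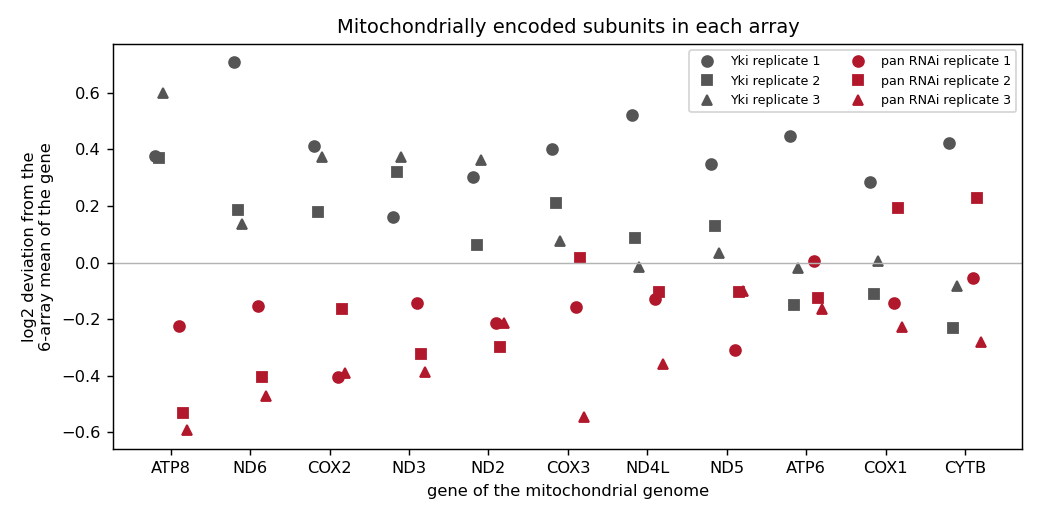
Levels of the 11 measured genes of the mitochondrial genome in each array, as the log2 deviation from the gene's 6-array mean, ordered by change. The groups are apart for ATP8, ND6, COX2, ND3, ND2, COX3, ND4L and ND5 and overlap for ATP6, COX1 and CYTB. Of all features, 21.6% are apart and lower.

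The L paralogues were lower in 1 case, higher in 2 and not called in 7, with a median change of 0.07. Of all features 13.4% fell and 12.1% rose, and of those with a mean level under 7, 3.81% fell and 5.84% rose. Nothing is read from counts of 1 and 2 genes. The features of the L paralogues lay between 5.94 and 7.80 in all arrays, toward the low end of the table, where array signals respond less to a change in RNA. The 3306 features of the table with a mean level under 7, which include 7 of the 10 L paralogues, had a median change of 0.08, and 2414 of them were above 0. The median of the L paralogues was thus close to that of dim features in general, while that of the main subunits was -0.28. UQCR-11L was at 6.95, 7.01 and 7.20 in the Yki arrays and at 7.80, 7.35 and 7.46 with pan RNAi, a rise of 0.48 ± 0.12 (1.4-fold, adjusted p = 0.0307). SdhAL was at 6.33, 6.30 and 6.17 against 6.69, 6.39 and 6.69, a rise of 0.32 ± 0.09 (1.25-fold, adjusted p = 0.0466). The groups did not overlap in either gene, but both calls were lost on leaving out single arrays. That of SdhAL held only without pan RNAi replicate 2 (adjusted p = 0.0721 to 0.137 otherwise). That of UQCR-11L ended without Yki replicate 1 or 2 or pan RNAi replicate 1 or 3 (adjusted p = 0.0519 to 0.0875).

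ATPsynepsilonL was the L paralogue that fell, at 7.03, 6.90 and 7.15 against 6.52, 6.33 and 6.73. Its change was -0.50 ± 0.11 (1.42-fold, adjusted p = 0.0179, and 0.0591 to 0.0612 without pan RNAi replicate 1 or Yki replicate 3). The other 7 ranged from -0.10 to 0.18. ND-51L1 (0.18 ± 0.06, adjusted p = 0.0598) and ND-51L2 (0.16 ± 0.07, adjusted p = 0.133) had the largest positive changes among them and passed with array medians set equal (adjusted p = 0.0262 and 0.0357). The L paralogues that rose numbered 4 under that scaling, under which 18.5% of all features rose, and 1 with quantile normalization, under which 14.3% rose. ND-20L (0.12 ± 0.11), ND-B14.5AL (0.03 ± 0.10), ND-24L (0.01 ± 0.12), COX5BL (0.01 ± 0.06) and ATPsynbetaL (-0.10 ± 0.12) had adjusted p-values of 0.439 to 0.956. The change of ND-20L was 0.03 on omitting Yki replicate 2, and 0.24 on omitting Yki replicate 3, when it passed (adjusted p = 0.0492).

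For 8 of the L paralogues the main subunit was measured too, and the change of the paralogue was set against that of its partner within each array. In 7 of 8 pairs the paralogue's change lay above its partner's, in a setting where every main subunit was below 0 and most dim features were above 0. Nothing particular to the paralogues is read from that tally. The difference was 0.67 for UQCR-11L and UQCR-11, 0.53 for COX5BL and COX5B, 0.37 for ND-51L1 and 0.34 for ND-51L2 against ND-51. In these 4 pairs the within-array differences did not overlap between the groups (exact permutation test over the 6 arrays, two-sided p = 0.1, the smallest that 3 against 3 arrays can give, and 0.2 adjusted over the 8 pairs). The test could therefore not pass for any pair. The differences for ND-20L (0.23), ND-B14.5AL (0.20) and ATPsynbetaL (0.16) had exact permutation p-values of 0.3 to 0.4. Single arrays moved each of these by more than 1.5 times. That of ND-20L was 0.14 on omitting Yki replicate 1 or 2 and 0.41 on omitting Yki replicate 3. That of ND-B14.5AL was 0.06, 0.32 and 0.13 on omitting Yki replicate 1, Yki replicate 2 or pan RNAi replicate 3, and that of ATPsynbetaL 0.09 and 0.08 on omitting replicate 1 of the Yki or the pan RNAi group. ATPsynepsilonL went the other way against sun, by -0.27 (exact permutation p = 0.2). COX5BL and COX5B lie close together on chromosome arm 2L in the RefSeq annotation, with 1 gene between them. COX5B fell while COX5BL had a 95% confidence interval of -0.13 to 0.14.

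**Figure D4:**
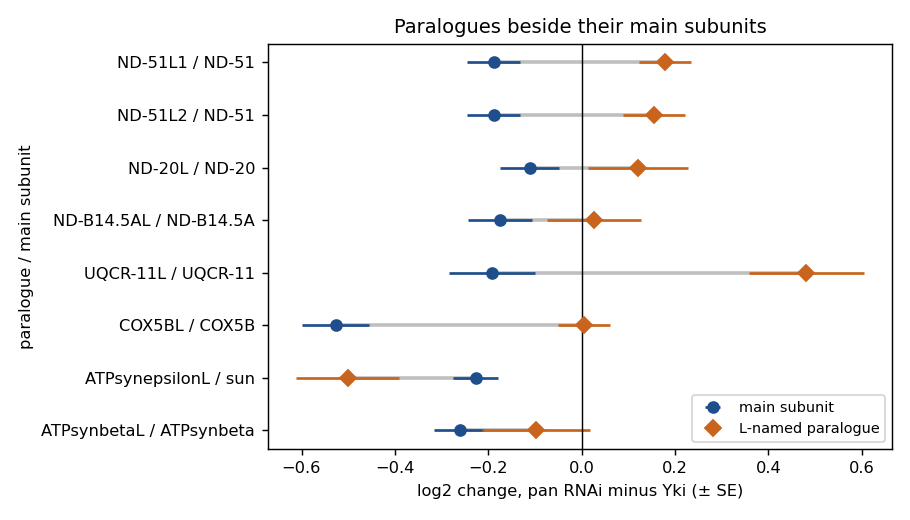
Changes (log2, pan RNAi minus Yki, bars ± SE of the limma fit) of 8 L paralogues (diamonds) and their main subunits (circles), a pair per row. The paralogue lies to the right of its partner in 7 of 8 rows, with the widest gap, 0.67, for UQCR-11L and UQCR-11.

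Other mitochondrial genes were taken from lists by function, to be read beside the 13.4% of all features that fell and the 12.1% that rose. Among factors that assemble the complexes, 1 of 10 fell and 1 rose, with a median of -0.04. Both shares are near those of all features. Ttc19, which acts on complex III, was at 8.56, 8.81 and 8.76 against 9.23, 9.27 and 9.20 and rose by 0.53 ± 0.07 (adjusted p = 0.00356). Surf1, which acts on complex IV, changed by -0.23 ± 0.06 (adjusted p = 0.032), a call that held only without Yki replicate 3 (adjusted p = 0.0603 to 0.0883 otherwise). In the tricarboxylic acid cycle, which supplies NADH and succinate, 6 of 13 fell and 0 rose, with a median of -0.15. Examples were muc, a subunit of pyruvate dehydrogenase (-0.24 ± 0.04, adjusted p = 0.00778), and the succinyl-CoA synthetase gene Scsalpha1 (-0.30 ± 0.06, adjusted p = 0.0123). The aconitase gene mAcon1 (-0.24 ± 0.05, adjusted p = 0.0147) lost its call without Yki replicate 2 or pan RNAi replicate 1 (adjusted p = 0.0527 to 0.0545).

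Of 10 genes that copy, maintain or transcribe the mitochondrial genome, 1 fell and 1 rose, with a median of -0.04. These shares too are near the 13.4% and 12.1% of all features. TFAM, which packages mitochondrial DNA and was named after its values were seen, was at 10.77, 10.80 and 10.79 against 10.82, 10.74 and 10.79 (-0.01 ± 0.04, adjusted p = 0.939). PolG1, the catalytic subunit of the mitochondrial DNA polymerase, rose by 0.27 ± 0.05 (adjusted p = 0.0109), and the transcription termination factor gene mTTF changed by -0.21 ± 0.04 (adjusted p = 0.0118). The groups thus overlapped for TFAM and were apart for PolG1 and mTTF.

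Of 26 genes of mitochondrial import, carriers and membrane, 9 fell and 2 rose (13.4% and 12.1% of all features), with a median of -0.12. The import chaperone gene Tim9a was at 7.44, 7.49 and 7.44 against 6.99, 6.98 and 6.88, a change of -0.50 ± 0.05 (adjusted p = 0.00122). The outer membrane channel gene porin (-0.38 ± 0.05, adjusted p = 0.0028) and sesB, which exchanges ADP for ATP across the inner membrane (-0.37 ± 0.05, adjusted p = 0.00372), fell too. Of 5 antioxidant genes 2 fell, Prx3 (-0.25 ± 0.06, adjusted p = 0.0226) and Trx2 (-0.18 ± 0.05, adjusted p = 0.0355). The call of Prx3 ended without Yki replicate 2 or 3 or pan RNAi replicate 1 or 2 (adjusted p = 0.0587 to 0.0667), and that of Trx2 held only without Yki replicate 3 (adjusted p = 0.0801 to 0.101 otherwise).

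Of 6 genes known or proposed to regulate mitochondrial genes or mitochondria, 2 fell and 1 rose (13.4% and 12.1% of all features). The growth regulator gene foxo changed by -0.28 ± 0.05 (adjusted p = 0.00848). The gene clu, whose product binds messages of mitochondrial proteins, changed by -0.27 ± 0.06 (adjusted p = 0.0217) and kept its call only without Yki replicate 1 (adjusted p = 0.0549 to 0.0688 otherwise). Pink1, a kinase of mitochondrial quality control, rose by 0.31 ± 0.08 (adjusted p = 0.0329), a call that ended without Yki replicate 2 or 3 or pan RNAi replicate 1 or 2 (adjusted p = 0.0708 to 0.103). The nuclear respiratory factor counterparts Ets97D (0.11 ± 0.07, adjusted p = 0.264) and ewg (0.22 ± 0.07, adjusted p = 0.0628), named after their values were seen, did not pass.

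**Figure D5:**
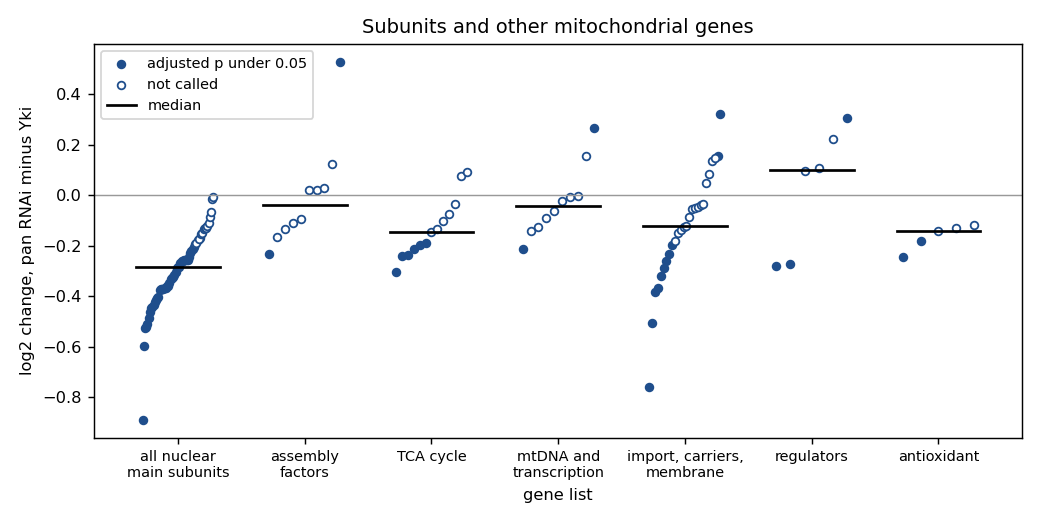
Changes (log2, pan RNAi minus Yki) of the 59 nuclear main subunits, those outside the symbol rule included, and of 6 lists of other mitochondrial genes. Each point is a gene, filled at an adjusted p under 0.05, and bars are medians, which run from -0.28 for the subunits to 0.10 for the regulators.

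Markers of cell types also moved between the groups, and their part in the fall of the subunits was not tested. Among disc epithelium markers, vg, nub, ap, rn, Dll, en and hh were at 9.25 or above in every array. The other markers went lower with pan RNAi, ct to 7.00, pdm2 to 7.77, dve to 8.49 and bbg to 8.67. Of 11 measured markers of disc epithelium, 8 fell and 2, ap and hh, rose (13.4% and 12.1% of all features). Their summed level (log2 of the sum of linear values) was 13.79 to 13.80 in the Yki arrays and 13.20 to 13.35 with pan RNAi. The largest term of this sum in the Yki arrays was Dll, which changed by -1.02 ± 0.09. All 4 markers of adult muscle precursors, the myoblasts on the disc, fell, with a summed level of 11.14 to 11.27 against 10.03 to 10.21. Of 6 haemocyte markers, 4 rose (Hml, Sr-CI, Pxn and He) and 1, Ppn, fell, and the sum, in which Ppn is the largest term in the Yki arrays, was 11.31 to 11.36 against 10.73 to 10.89. Of 4 tracheal markers 3 fell, with a summed level of 13.58 to 13.65 against 13.20 to 13.31. Of 5 larval muscle markers 1 fell (9.92 to 9.94 against 9.60 to 9.77). Of 3 fat body markers 0 passed, with 1 lower and 0 higher at an unadjusted p under 0.05 (2162 and 2308 of all 11303 features). Of 8 germline and testis markers 0 passed at an adjusted p under 0.05, with 1 higher and 0 lower at an unadjusted p under 0.05 (limma). The summed level of the last was 10.14 to 10.18 against 10.26 to 10.37.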

How the data were processed

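Total RNA from wing discs was labelled with biotin and hybridised to single-channel arrays, 3 per group, grouped by the sample titles. The deposited expression values are log2 signals that the authors had already normalized; neither labels nor headers name the background correction and normalization, and the deposited tables differed by at most 5e-09. Of 11325 features, 10156 have 1 gene symbol, 313 several and 856 none in the platform annotation. Symbols were updated through Entrez numbers to the RefSeq annotation (9975 features). A gene with several features was represented by that with the highest mean.

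Changes were tested with limma 3.58.1 (R 4.3.3; lmFit and eBayes, 11303 features) with Benjamini-Hochberg adjustment at 0.05. The procedure was tested on simulated data. Paralogue pairs were compared by exact permutation over the arrays (scipy 1.17.1, Python 3.11.15). The members and lists were chosen with earlier results of these data known. Named were all complex II members, per other complex the 4 members with the lowest p and those with the largest and smallest changes, members that rose, all L paralogues with their partners, measured subunits outside the symbol rule, and up to 3 called genes with the lowest p per other list. ATPsynC, ATPsyndelta and the genes said to be so in the text were named after their values were seen. Alternatives changed the scaling, the filter on dim features, the variance model, the table, the features per gene, the threshold and the arrays included. Some genes, the RNA interference target among them, are not reported here.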

Additional observations from a re-analysis of the deposited data

How the results depend on the processing

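All 52 main subunits were below 0 as deposited. Median centring raises every change by the same amount, that of SdhB from -0.07 to -0.01. COX7A and ND-MNLL, at -0.008 and -0.013 as deposited, therefore lie above 0 under it. The count of main subunits that fell was 27 to 34 on leaving out 1 array and 27 to 39 under the other settings, against 38. Of 42 called members, 25 kept their call whichever array was left out. Over all features, leaving out 1 array gave 1744 to 2435 calls against 2887. The count of members that rose, 2, became 4 with median centring, 1 with quantile normalization, 0 with a separate variance per feature, 0 at the submitters' 2-fold threshold (where 0 fell) and 0 over main subunits only, and was 0 to 2 on leaving out 1 array. These were all L paralogues, whose count that fell was 0 with dim features left out, 0 with a separate variance and 0 to 1 on leaving out 1 array. Median centring moved the median change to -0.20 for all members, -0.22 for main subunits and -0.20 for complex I, and the count that fell to 1 for complex II and 6 for ATP synthase. The complex II count was also 1 with quantile normalization and 1 with a separate variance, which left 1 in complex III. On leaving out 1 array these counts were 1 to 2 for complex II, 1 to 2 for complex III and 5 to 10 for ATP synthase, and medians were -0.29 to -0.22 for all members, -0.27 to -0.22 for complex I and -0.34 to -0.20 for complex II. The median of L paralogues was 0.18 with dim features left out (3 remained) and 0.014 with quantile normalization. Apart from the equal shift that median centring gives every change, the cause of these shifts was not tested. Replicate numbers did not pair the arrays (correlations of same-numbered deviations -0.127, -0.098 and 0.162). Between differently numbered arrays of the 2 groups they ran from -0.281 to 0.345, the highest for Yki replicate 1 with pan RNAi replicate 2. With the replicate number as a block 34 of 42 called members remained called, 0 rose, and 2159 of all features were called against 2887. The planned search for promoter motifs was not run.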
